A study of Papio anubis and Macaca fascicularis and Castor canadensis with 48 samples.

Results

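The levels of 9 genes that mark astrocytes were followed through brain, cerebellum, kidney and liver libraries of 8 mammalian species. The genes were Gfap, Aqp4, Slc1a2, Slc1a3, Hepacam, Aldh1l1, S100b, Gja1 and Gjb6. They are a list of named astrocyte genes, and the rule that defines the list uses no measured value. All 9 had a row among the 16816 rows of the count table, which names genes by mouse Ensembl identifiers for every species. The table does not pair identifiers with symbols, so the symbols are those of the list that defines the genes.

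Astrocytes are the star-shaped glial cells of the brain and spinal cord. They take up glutamate released at synapses, move water and potassium towards blood vessels, and are joined to one another by gap junctions. The cerebellum also holds Bergmann glia, radial astrocytes that line the Purkinje cell layer and carry much Slc1a3. Liver and kidney hold no astrocytes, but several of the 9 genes are known from other cells: Aldh1l1 from hepatocytes and kidney tubules, Slc1a2 from hepatocytes around the central veins, and Gja1 from many connected cell types.

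The series profiled total RNA of wild-type adult males, described as young adults, with no treatment named. The baboon (Papio anubis) gave 6 brain, 6 kidney and 6 liver libraries. The long-tailed macaque (Macaca fascicularis), called macaque below, gave 6 cerebellum, 5 kidney and 6 liver libraries. The beaver (Castor canadensis) gave 2 brain and 2 liver libraries. These 39 libraries came from a primate research centre, and 9 others came from an earlier collection: chipmunk (Tamias sibiricus) liver with 2 libraries, sugar glider (Petaurus breviceps) liver with 2, American black bear (Ursus americanus) kidney and liver with 1 each, white-footed mouse (Peromyscus leucopus) brain and liver with 1 each, and tube-nosed bat (Murina leucogaster) liver with 1. The collection and the species cannot be told apart. The brain region sampled is not given for baboon, beaver or white-footed mouse, and only macaque libraries are titled cerebellum. Nothing says that replicates are separate animals, so p-values measure the spread between these libraries.

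Library totals ran from 6326129 to 26801829 counts. Levels are given as CPM, the count of a gene per 1000000 counts of its library. Fold changes are log2 values with their standard error (SE) from edgeR's quasi-likelihood test with TMM scaling (trimmed mean of M values, a factor that sets most genes to no change between libraries), and a gene is called at a Benjamini-Hochberg adjusted p under 0.05 over all genes tested. TMM factors were low in liver (0.518 in baboon and 0.544 in macaque) and high in neural tissue (1.40 and 1.49). A fitted fold against liver is thus smaller than the ratio of CPM for a gene higher in neural tissue. For a gene lower there, such as Aldh1l1, it is larger. Without these factors the median of all genes moved from 0.05 to 1.48 for baboon brain against liver and from 0.06 to 1.47 for baboon kidney against liver. CPM is not divided by gene length, so levels are compared between samples and not between genes. In whole tissue, fewer astrocytes and less RNA per astrocyte cannot be told apart. The sources used here do not state how reads of 8 species were assigned to mouse identifiers, so a fold between species can hold differences between gene models. The white-footed mouse brain library was the shallowest, and its TMM factor in the fit of brains was 0.36 against 1.11 in baboon and 1.21 in beaver.

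**Figure D1:**
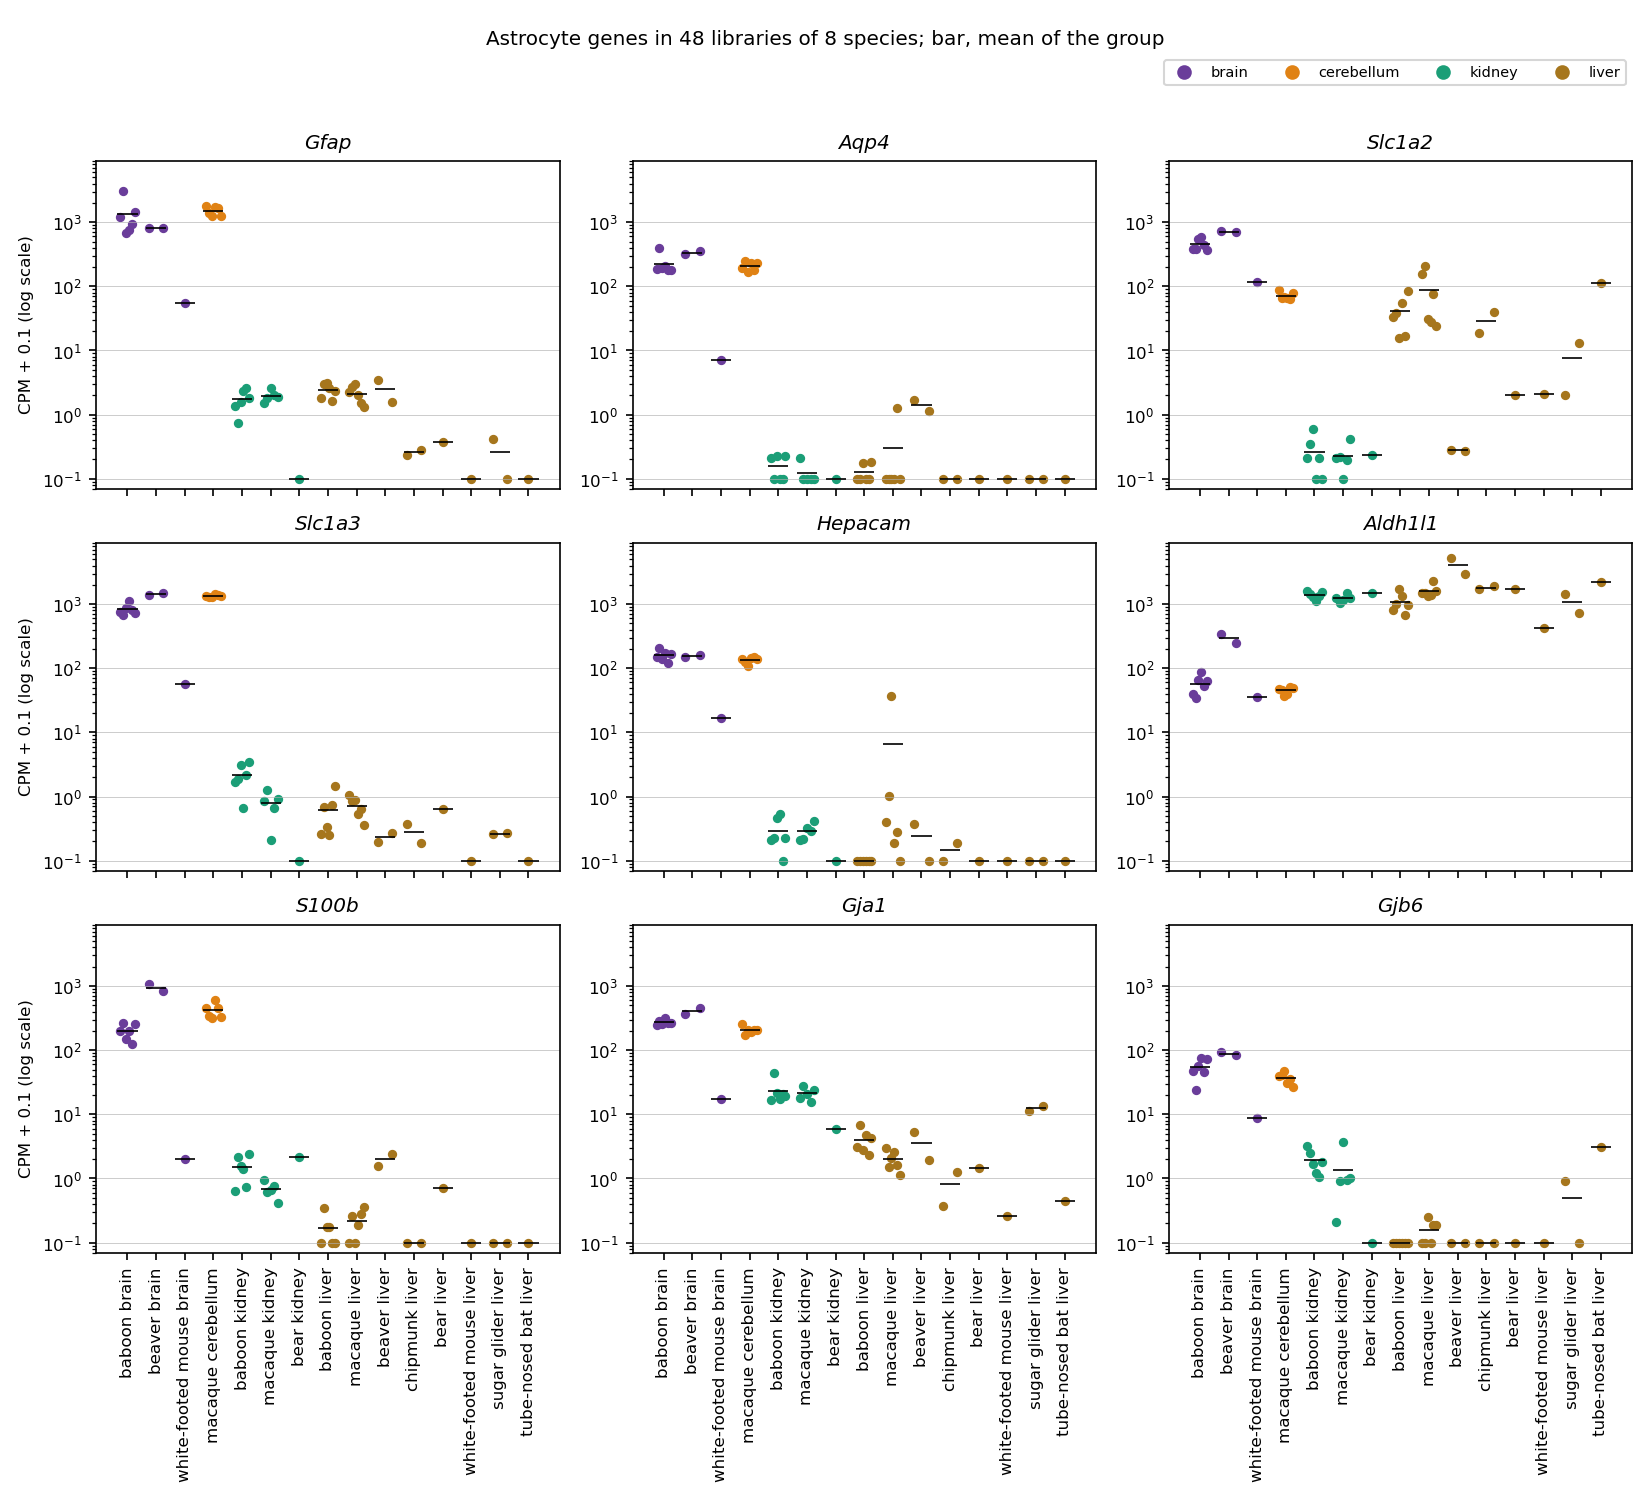
CPM + 0.1 on a log axis for each of the 9 genes, 1 point per library, with a bar at the mean of each of the 15 species and organ groups and colours for the organs. For 7 genes the neural libraries of baboon, beaver and macaque lie above all kidney and liver libraries, Aldh1l1 is lower in every neural library than in any kidney or liver library, and Slc1a2 reaches neural levels in some livers.

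In baboon, all 9 genes differed between brain and liver. Of these, 8 were higher in brain (42.4% of the 13890 genes tested were called higher) and 1, Aldh1l1, was lower (40.0%). The same split was found between brain and kidney, with 8 higher (38.2% of all genes) and 1 lower (39.1%). In macaque, cerebellum exceeded liver in 7 of the 9 (42.1% of 13927 genes) and was lower in 2 (39.8%), Slc1a2 and Aldh1l1, while cerebellum exceeded kidney in 8 (37.9%) and was lower in 1 (37.8%). Beaver brain exceeded beaver liver in 8 (35.2% of 13309 genes) and was lower in 1 (29.3%). In CPM, all baboon brains lay above all livers for 8 genes (64.0% of all genes) and below them for 1 (11.8%), and above all kidneys for 8 (31.6%) and below them for 1 (30.1%). All macaque cerebella lay above all livers for 7 (63.7%) and below them for 1 (12.2%), and above all kidneys for 8 (40.1%) and below them for 1 (28.3%). The median log2 difference over the 9 genes was 9.22 for baboon brain over liver (8.96 with the genes at 0 in liver set to their lower bounds), against 0.05 for all genes. It was 8.63 over baboon kidney, 7.83 and 9.22 for macaque cerebellum over liver and kidney, and 7.57 for beaver brain over liver, against medians of all genes of -0.02, 0.06, 0.02 and 0.12. The comparisons within a species share their neural libraries.

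**Figure D2:**
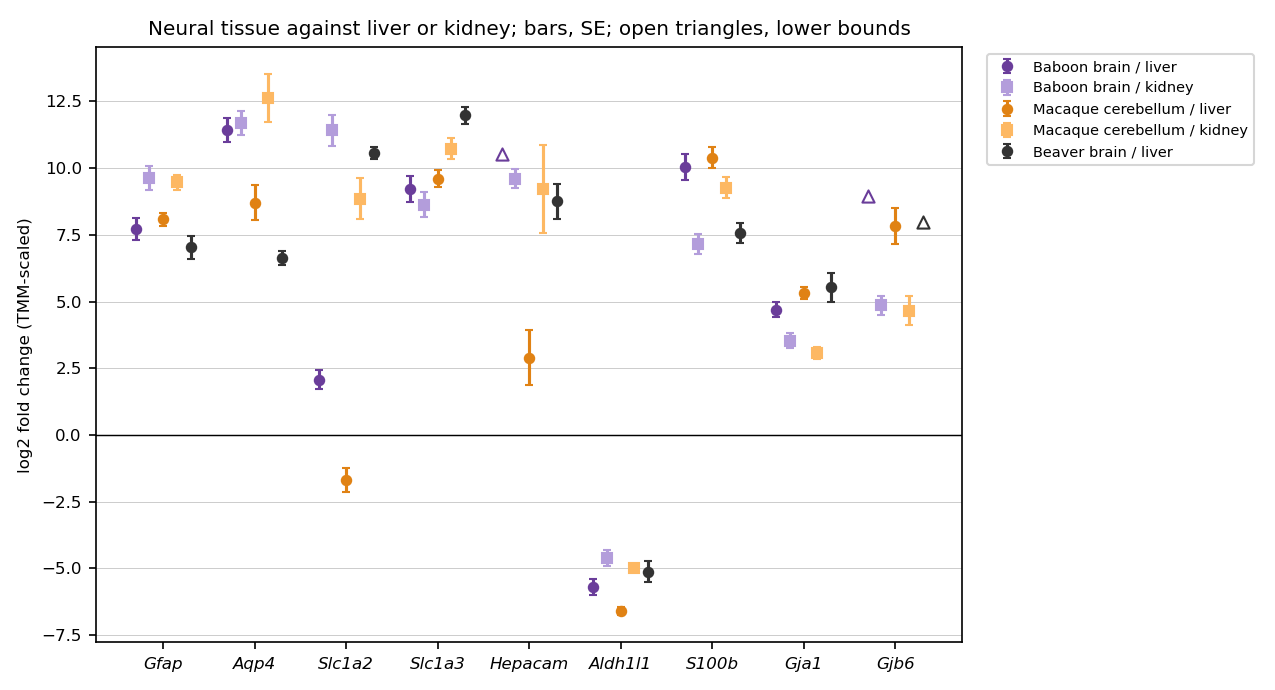
Fitted log2 fold changes of neural tissue over liver (circles) or kidney (squares) for the 9 genes, with SE bars, and open triangles for lower bounds where no liver library had a count. Aldh1l1 lies between -6.60 and -4.61 in all 5 contrasts, and Slc1a2 runs from -1.69 in macaque cerebellum over liver to 11.41 in baboon brain over kidney. The Aqp4 folds over baboon liver, baboon kidney and macaque kidney rest on 2 to 6 counts in the low organ. Other points rest on few counts too, among them Slc1a3 (6), Hepacam (6) and Slc1a2 (8) over beaver liver. The same holds for Gjb6 over macaque liver (8) and S100b over baboon liver (10).

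Gfap (ENSMUSG00000020932) encodes the intermediate filament protein that builds the astrocyte skeleton. It stood at 1338 CPM ± 870.1 (SD, n = 6) in baboon brain, with a lowest value of 677, a median of 1072 and a highest of 3012. In macaque cerebellum it stood at 1514 CPM ± 249 (n = 6), from 1231 through a median of 1534 to 1792. The macaque values all fell inside the baboon range, whose top was replicate 2 with the next library at 1444. The 2 beaver brain libraries gave 810.9 and 809.2 CPM. Kidney and liver of baboon, macaque and beaver held Gfap at group means of 1.63 to 2.41 CPM, so no such library came near a brain library. The fitted difference was 7.72 ± 0.42 (SE) for baboon brain over liver (adjusted p = 3.16e-12) and 9.63 ± 0.46 over kidney. It was 8.08 ± 0.25 for macaque cerebellum over liver, 9.46 ± 0.28 over kidney and 7.03 ± 0.44 for beaver brain over liver (7.69 without beaver liver replicate 1).

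Aqp4 (ENSMUSG00000024411) encodes the water channel of astrocyte endfeet on blood vessels. Baboon brain held 224 CPM ± 84.4 (n = 6), with 178 as the lowest value, 189.8 as the median and 394.7, in replicate 2, as the highest. Macaque cerebellum held 209.9 CPM ± 33.4, from 168 through a median of 214 to 252, and the ranges overlapped. Beaver brain gave 314 and 354 CPM, both below baboon brain replicate 2. In primate kidney and liver Aqp4 was close to the detection limit. The 6 baboon livers held 4 counts in all, the 6 baboon kidneys 6 counts and the 5 macaque kidneys 2 counts, where 2 deposited counts come to about 1 read pair. Scaled by TMM, baboon brain exceeded liver 3150-fold (95% counting interval 873 to 26000) and kidney 3850-fold (1320 to 18700), and macaque cerebellum exceeded kidney 8700-fold (1560 to 343000). All 26 Aqp4 counts of the macaque livers lay in replicate 5, at 1.19 CPM. The fitted value of macaque cerebellum over liver was 8.71 ± 0.65 (adjusted p = 6.92e-10 by edgeR), and 14.55 without that library, when no macaque liver held a count; that value is no bound. Beaver liver held more, at 1.57 and 1.04 CPM, and beaver brain over liver was 6.62 ± 0.26.

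Hepacam (ENSMUSG00000046240) encodes an adhesion protein of the immunoglobulin family that sits at contacts between astrocytes and was first described in liver cells. It was close between neural tissues: 159 CPM ± 30.01 in baboon brain (122 to 208, median 158), 136 CPM ± 16.1 in macaque cerebellum (108 to 152, median 141), and 152 and 159.6 CPM in the beaver brains. The ranges of the 3 tissues overlapped. No baboon liver library had a Hepacam count, which allows up to 0.0395 CPM over the 6 libraries, and brain was at least 1490-fold higher. In macaque liver 1 library stood apart: replicate 3 held 37.3 CPM and 96.4% of the group's 1003 counts, while the other 5 held 0 to 0.904 CPM. The fitted fold of macaque cerebellum over liver was 2.89 ± 1.03 (adjusted p = 0.0151 by edgeR), and 7.37 without that library. Over kidney it was 9.61 ± 0.35 in baboon and 9.22 ± 1.66 in macaque.

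S100b (ENSMUSG00000033208) encodes a small calcium-binding protein that astrocytes also release; some oligodendrocytes and peripheral glia carry it too. Baboon brain held 199 CPM ± 55.6 (126 to 265, median 199) and macaque cerebellum 418 CPM ± 112 (312.5 to 603, median 401). The ranges did not overlap. The 2 beaver brains were higher still, at 1074 and 825 CPM. Group means in kidney were 1.39 CPM in baboon, 0.582 in macaque and 2.06 in the bear library, and those in primate liver were 0.0671 and 0.116 CPM. Baboon brain exceeded liver by 10.04 ± 0.50 (11.05 without baboon liver replicate 2) and kidney by 7.15 ± 0.39, and macaque cerebellum exceeded them by 10.39 ± 0.40 and 9.27 ± 0.39 on the log2 scale. In beaver the liver held 1.48 and 2.35 CPM, and brain over liver was 7.57 ± 0.36.

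Slc1a3 (ENSMUSG00000005360) encodes GLAST, one of the glutamate transporters of astrocytes and the main one of Bergmann glia. In baboon brain it stood at 828 CPM ± 165 (676 to 1133, median 777). Macaque cerebellum was higher and more even, at 1349 CPM ± 54.3 (1292 to 1440, median 1352), with every library above the highest baboon brain. The beaver brains reached 1409 and 1477 CPM. Kidney and liver libraries of all species held at most 3.32 CPM, in a baboon kidney. Neural tissue exceeded liver by 9.22 ± 0.48 in baboon, 9.61 ± 0.33 in macaque and 11.97 ± 0.31 in beaver, where the 2 livers held 6 counts in all (4130-fold by counts, interval 1410 to 20000).

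Slc1a2 (ENSMUSG00000005089) encodes GLT-1, the other main astrocyte glutamate transporter, and gave the least uniform pattern of the 9. Baboon brain held 449.9 CPM ± 93.5 (363 to 584, median 415) and the beaver brains 727 and 703 CPM. Macaque cerebellum held only 71.8 CPM ± 9.53 (64.5 to 87.8, median 67.3). No cerebellum library came near a brain library of baboon or beaver. Slc1a2 was at most 0.489 CPM in every kidney library, so that baboon brain over kidney was 11.41 ± 0.59 (12.11 without kidney replicate 3) and macaque cerebellum over kidney 8.85 ± 0.77 (9.46 without kidney replicate 6). Liver was different. Macaque livers held 86.0 CPM ± 75.9 and spanned 24.2 to 204, with a median of 53.4, an 8.45-fold range. Baboon livers held 40.7 CPM ± 26.2 (15.7 to 85.1, median 35.6). Baboon brain exceeded liver by 2.06 ± 0.36 (adjusted p = 2.93e-05), and no liver library reached the lowest brain. In macaque the cerebellum and liver ranges overlapped in CPM. The TMM-scaled fit put cerebellum lower, at -1.69 ± 0.44 (adjusted p = 0.0017 by edgeR), but with library totals only the value was -0.26 (adjusted p = 0.574), so that call depends on the scaling.

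Gja1 (ENSMUSG00000050953) encodes connexin 43 and Gjb6 (ENSMUSG00000040055) connexin 30, the channel proteins of astrocyte gap junctions. Gja1 was the most even gene in baboon brain, at 272 CPM ± 23.7 (251 to 315, median 265), and stood at 206 CPM ± 29.2 (171 to 259, median 205) in macaque cerebellum and at 370.1 and 457 CPM in the beaver brains. It was also present in kidney, at 23.1 CPM ± 10.1 in baboon (16.8 to 43.4, median 19.9) and at 17.9, 27.3, 20.8, 15.5 and 23.8 CPM in the 5 macaque kidneys. Brain libraries remained above all of them, by 3.53 ± 0.27 in baboon and 3.08 ± 0.22 in macaque, the smallest positive differences over kidney in either species. Gjb6 stood in neural tissue at 53.7 CPM ± 19.1 in baboon brain (24.1 to 74.9, median 52.3), 36.5 CPM ± 7.47 in macaque cerebellum (26.1 to 47.0, median 37.6), and 92.4 and 83.2 CPM in beaver brain. It had no count in any of the 6 baboon livers or the 2 beaver livers, and brain was at least 498-fold higher in baboon and at least 252-fold higher in beaver. Over kidney, where Gjb6 stood at 1.82 CPM in baboon and 1.25 in macaque, the difference was 4.85 ± 0.37 and 4.66 ± 0.54 (5.54 without macaque kidney replicate 3).

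Aldh1l1 (ENSMUSG00000030088) encodes a cytosolic enzyme of folate metabolism, 10-formyltetrahydrofolate dehydrogenase, and is used as a general astrocyte marker. It was lower in neural tissue than in kidney and liver in each of the 5 contrasts. Baboon brain held 57.3 CPM ± 19.2 (34.7 to 87.9, median 57.9), macaque cerebellum 45.1 CPM ± 5.86 (36.8 to 51.9, median 46.7), and the beaver brains 348 and 249.9 CPM. Every kidney and liver library held more than any of these. Kidney stood at 1381 CPM ± 184 in baboon (1100 to 1586, median 1375), at 1266, 1043, 1178, 1473 and 1253 CPM in the macaque libraries and at 1481 CPM in the bear (95% exact interval 1450 to 1510). Neural tissue was lower than liver by log2 differences of -5.69 ± 0.30 in baboon, -6.60 ± 0.16 in macaque and -5.13 ± 0.39 in beaver, and lower than kidney by -4.61 ± 0.29 and -4.99 ± 0.15. Under other settings of the scaling or fit, the smallest differences from liver were -4.24 in baboon, -5.16 in macaque and -3.77 in beaver.

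Between kidney and liver, organs without astrocytes, the 9 genes showed no shared direction. In baboon 4 were called higher in kidney (35.3% of all genes) and 3 lower (31.2%), and in macaque 2 were called higher (32.7%) and 6 lower (30.4%). Slc1a2 was lower in kidney by -9.35 ± 0.57 in baboon and -10.54 ± 0.80 in macaque (-10.05 without baboon kidney replicate 3 and -11.15 without macaque kidney replicate 6), and Gja1 was higher by 1.15 ± 0.26 and 2.23 ± 0.22. Gjb6 was also higher, at least 17.1-fold in baboon and by 3.18 ± 0.80 in macaque (2.29 without macaque kidney replicate 3, 3.85 without macaque liver replicate 3). S100b was higher in baboon kidney by 2.89 ± 0.61 (adjusted p = 0.000415, and 3.9 without baboon liver replicate 2) and was not called in macaque, at 1.12 ± 0.54 (called on library totals, at 2.33). Hepacam was at least 1.82-fold higher in baboon kidney, where 20 counts faced 0 in liver, a call lost with all 48 libraries in 1 fit (adjusted p = 0.357 by edgeR). In macaque it was lower in kidney at -6.33 ± 1.60, and at -1.85 without liver replicate 3. Slc1a3 was not called in baboon (0.59 ± 0.45) but was on library totals (1.97), and it was lower in macaque kidney at -1.12 ± 0.35, with 0.11 on library totals. For Aldh1l1 the direction hung on the scaling: kidney was lower in baboon by -1.08 ± 0.25 (adjusted p = 0.000947 by edgeR) with TMM, and 0.35 higher (adjusted p = 0.157) on library totals, where the median of all genes itself was 1.47. The CPM values of Aldh1l1 overlapped between baboon kidney and liver. In macaque the corresponding values were -1.61 ± 0.14 and -0.37. Gfap, called lower in kidney at -1.92 and -1.38, was not called on library totals in either species (-0.49 and -0.13). Macaque kidney held 2 Aqp4 counts and macaque liver 26, all in 1 library, and the called value of -3.91 became 1.93 without that library and lost its call with the replicate number as a block (-3.85, adjusted p = 0.0665 by edgeR). Aqp4 was not called in baboon (-0.25 ± 1.04). Baboon and macaque kidneys differed in 1 of the 6 genes tested, Slc1a3 (1.52 ± 0.53 higher in baboon, adjusted p = 0.0443; 15.3% of genes were called higher); Aqp4, Slc1a2 and Hepacam fell below the filter on low counts. Leaving out any of 9 single kidney libraries ended that Slc1a3 call. Gfap (-0.26 ± 0.32), Aldh1l1 (0.10 ± 0.13), S100b (1.17 ± 0.43), Gja1 (0.06 ± 0.25) and Gjb6 (0.48 ± 0.61) were not called between the kidneys. S100b lay close to the threshold (adjusted p = 0.0574 by edgeR). It was called with DESeq2, on library totals, with all 48 libraries in 1 fit, and without baboon kidney replicate 1 or replicate 5.

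Macaque cerebellum was then set against baboon brain, a contrast in which species and brain region cannot be told apart. A difference was called for 6 of the 9 genes, 2 higher in cerebellum (33.3% of 13213 genes) and 4 lower (32.6%), so the share called, with 65.9% of all genes called in either direction, was close to that of genes at large. The glutamate transporters moved in opposite directions. Slc1a2 was lower in cerebellum by -2.71 ± 0.15 (adjusted p = 2.53e-09), a 6.57-fold difference, and Slc1a3 was higher by 0.64 ± 0.12 (adjusted p = 0.000282). S100b was higher by 1.01 ± 0.20 and Gja1 lower by -0.46 ± 0.10. Smaller differences were called for Gjb6 (-0.62 ± 0.24, adjusted p = 0.0315) and Hepacam (-0.29 ± 0.12, adjusted p = 0.0441), and each of these calls was lost when any of 6 single libraries was left out. Gfap (0.13 ± 0.30), Aqp4 (-0.15 ± 0.19) and Aldh1l1 (-0.41 ± 0.20) were not called. Without baboon brain replicate 2, the library with the highest Gfap, the difference of Gfap became 0.53 (adjusted p = 0.0223 by edgeR) and that of Aldh1l1 -0.53 (adjusted p = 0.0123 by edgeR). With all 48 libraries in 1 fit, 2 of the 9 were called, Slc1a2 and S100b.

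Ratios of genes within a library do not depend on how libraries are scaled. The count of Slc1a3 over that of Slc1a2 was 1.94, 1.78, 1.61, 1.94, 1.82 and 2.01 in baboon brain replicates 1 to 6, and 1.94 and 2.10 in the beaver brains. In macaque cerebellum it was 15.4, 19.96, 18.8, 21.8, 21.1 and 17.1. The ranges were far apart: the mean log2 ratio was 4.24 ± 0.19 (SD) in cerebellum and 0.88 ± 0.12 in baboon brain, a 10.2-fold difference (exact two-sided permutation test over 924 arrangements, p = 0.00216, the smallest it can give; adjusted over 3 ratios p = 0.00325). Gfap over Slc1a2 ran from 15.6 to 26.3 in cerebellum and from 1.25 to 7.94 in baboon brain, a 7.97-fold difference of the mean log2 ratio with the same exact p. Both ratios are taken over Slc1a2, and Gfap itself was not called between these tissues, so the ratios are not separate results. The ratio of the connexins did not separate the tissues. The log2 ratio of Gjb6 over Gja1 was -2.51 ± 0.35 in cerebellum and -2.43 ± 0.59 in baboon brain (exact permutation p = 0.794).

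**Figure D3:**
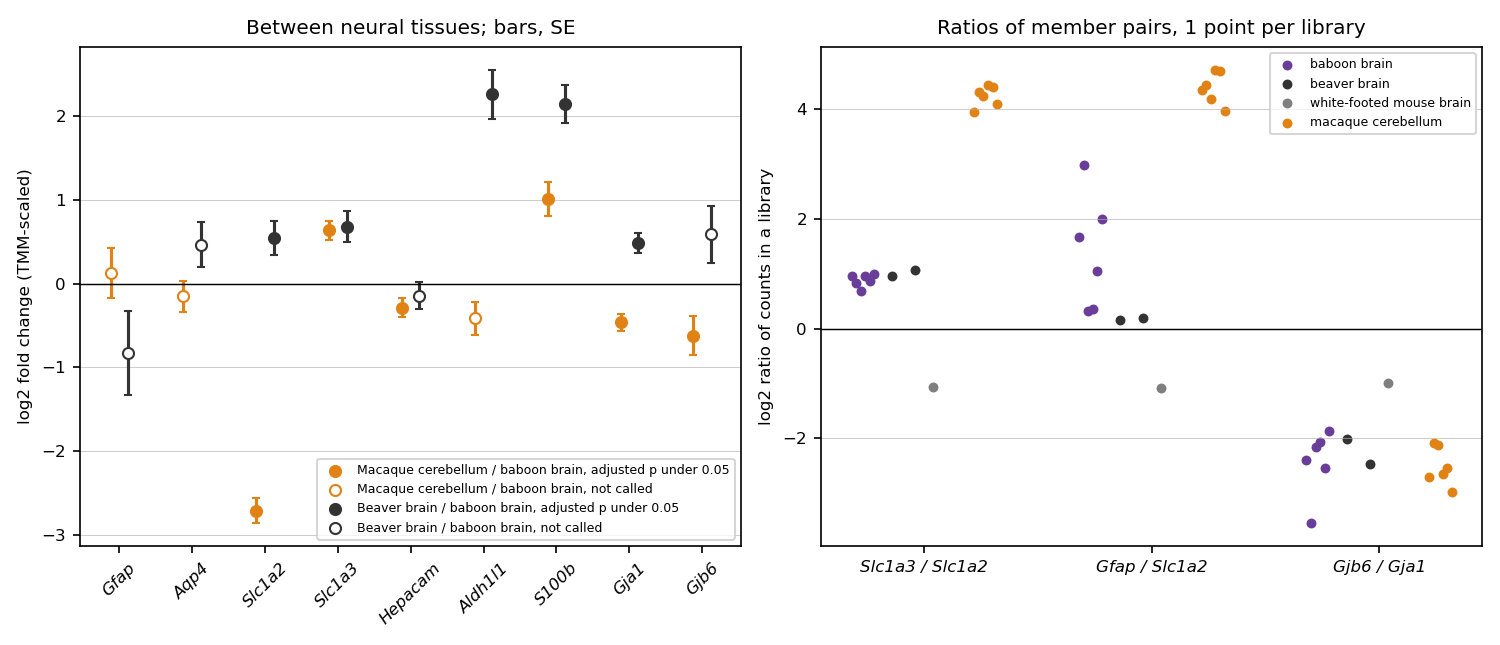
Left, fitted log2 fold changes with SE for macaque cerebellum and beaver brain over baboon brain, filled where the adjusted p was under 0.05. Right, log2 ratios of counts within each neural library. The 6 cerebellum libraries lie between 3.95 and 4.45 for Slc1a3 over Slc1a2, the baboon brains between 0.69 and 1.00, and the white-footed mouse brain at -1.06.

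Setting each neural tissue against the liver of its own species removes a count difference that all organs of a species share. Neural tissue over liver was smaller in macaque than in baboon for 4 of the 9 genes (19.3% of 14035 genes were called in that direction). Slc1a2 gave -3.66 ± 0.63 (adjusted p = 6.34e-05), which combines its lower level in cerebellum with its level in macaque liver. Aldh1l1 gave -0.82 ± 0.32 (adjusted p = 0.0425, and 0.0509 without baboon brain replicate 4). The fitted values of Hepacam (-11.03) and Gjb6 (-4.54) were set against baboon livers that held no count, so their sizes have no bound. Without macaque liver replicate 3 the value of Hepacam was -6.56 (adjusted p = 0.000565 by edgeR). With the replicate number as a block it was -7.65 and the call was lost (adjusted p = 0.137 by edgeR). Gjb6, with 8 counts in the macaque livers, gave an adjusted p of 0.0706 by edgeR without macaque liver replicate 3. Its call was also lost with halved counts (adjusted p = 0.0731 by edgeR) and with all 48 libraries in 1 fit (adjusted p = 0.0746 by edgeR). The other 5 genes were not called, at 0.46 for Gfap, -2.63 for Aqp4, 0.48 for Slc1a3, 0.43 for S100b and 0.72 for Gja1.

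Beaver brain exceeded baboon brain in 5 of the 9 genes (25.7% of 14484 genes). Aldh1l1 was 2.26 ± 0.29 higher (adjusted p = 0.000178) and S100b 2.15 ± 0.23 higher (adjusted p = 6.03e-05), and neither gene's libraries overlapped. Both calls held with any single library left out. Slc1a3 (0.68 ± 0.19), Slc1a2 (0.55 ± 0.20) and Gja1 (0.49 ± 0.12) were called with smaller differences. The Slc1a2 call was lost when either beaver brain or any of 4 baboon brains (replicates 1, 2, 5 and 6) was left out, the Slc1a3 call when either beaver brain was, and the Gja1 call without beaver brain replicate 2. With beaver brain replicate 1 left out 3 genes were called and with replicate 2 left out 2, where the lone beaver library is taken to vary like the baboon ones, and 2, Aldh1l1 and S100b, were called with all 48 libraries in 1 fit. Gfap (-0.82 ± 0.50), Hepacam (-0.14 ± 0.17) and Gjb6 (0.59 ± 0.34) were not called. Aqp4, at 0.46 ± 0.27, was called only without baboon brain replicate 2 (0.69, adjusted p = 0.000532 by edgeR).

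In CPM, the single white-footed mouse brain library had low levels of most members, and no replicate to test them. Its TMM factor in the fit of brains was 0.36 against 1.11 in baboon. On the TMM scale its levels would therefore stand higher beside baboon brain than the CPM values below do. Slc1a2 stood at 117 CPM (95% exact interval 105 to 130), and Slc1a3 and Gfap stood at 56.0 (48 to 64.8) and 55.0 (47.1 to 63.8). Aldh1l1 was at 36.0 CPM (29.7 to 43.3), Gja1 at 17.1 (12.8 to 22.3) and Hepacam at 16.8 (12.6 to 21.9). Gjb6 at 8.54 (5.63 to 12.4), Aqp4 at 6.96 (4.36 to 10.5) and S100b at 1.90 (0.696 to 4.13) were below 10 CPM. The count ratios of Slc1a3 and of Gfap over Slc1a2 were 0.479 and 0.471 in this library, and both ratios were above 1 in every baboon, beaver and macaque neural library. These intervals cover counting error only. The white-footed mouse liver had no count of 6 of the 9 genes, which allows up to 0.468 CPM for each.

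Replicates of 1 tissue did not share a single ordering over the 9 genes. Baboon brain replicate 2 was the highest library for Gfap, Aqp4, Hepacam and S100b and the lowest for Slc1a3, Aldh1l1 and Gjb6. On the log2 scale it lay 1.17 above the group mean for Gfap and -1.15 from it for Gjb6. Replicate 4 was the highest for the other 5 genes, Slc1a2, Slc1a3, Aldh1l1, Gja1 and Gjb6. In macaque cerebellum no library was highest for more than 3 genes, and replicate 3 was the lowest for Aqp4, Slc1a3, Hepacam, Aldh1l1 and S100b. The coefficient of variation ran from 8.71% for Gja1 to 65.1% for Gfap in baboon brain, and from 4.03% for Slc1a3 to 26.9% for S100b in cerebellum.

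**Figure D4:**
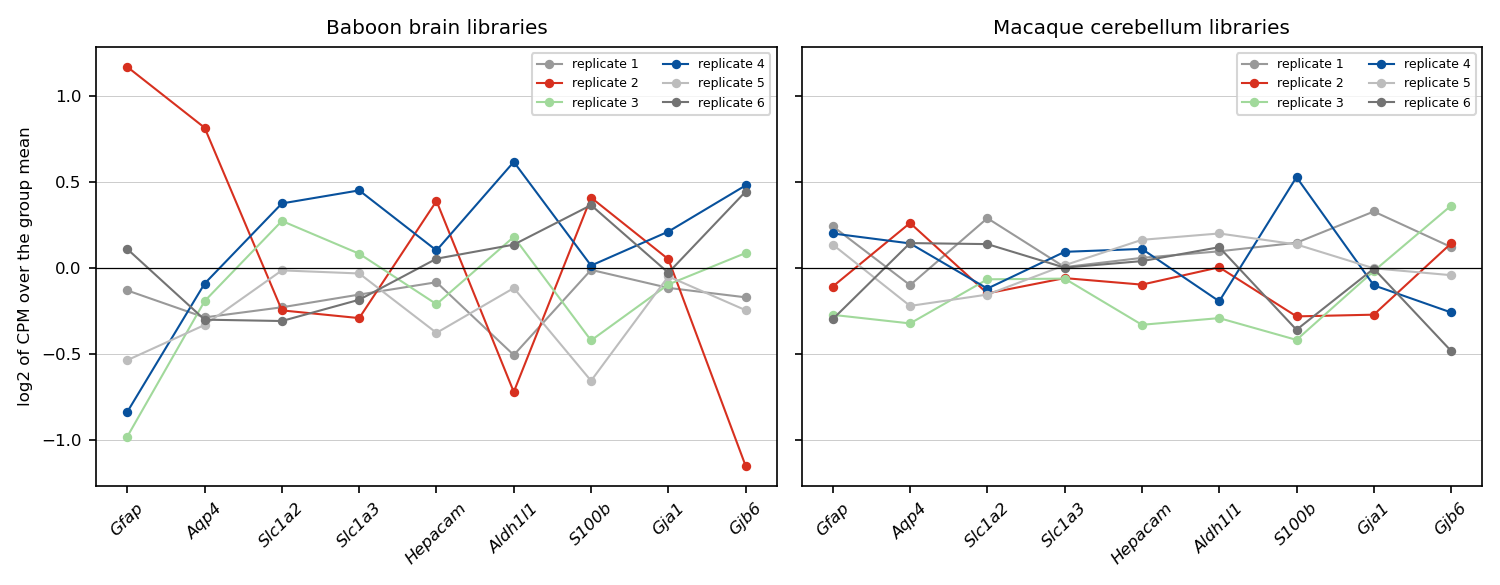
log2 of CPM over the group mean for each gene, 1 line per library, in baboon brain (left) and macaque cerebellum (right). Baboon brain replicate 2 goes from 1.17 for Gfap to -1.15 for Gjb6, and the cerebellum libraries stay closer together.

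Among the 8 livers, Aldh1l1 was high in every species. The beaver livers held 5176 and 2959 CPM, the chipmunk livers 1728 and 1896, and the sugar glider livers 1463 and 719.8. Baboon livers stood at 1086 CPM ± 387 (671 to 1738, median 982) and macaque livers at 1610 CPM ± 362 (1341 to 2323, median 1507). The single libraries gave 2199 CPM in tube-nosed bat (95% exact interval 2160 to 2240), 1743 in bear (1710 to 1770) and 431 in white-footed mouse (415 to 447). Each species was compared with the equally weighted mean of the other 7, and for a species with 1 library the spread comes from the other species, so its call assumes that it varies like them. Beaver liver was higher by 1.58 ± 0.29 (adjusted p = 0.000246; 29.5% of all genes were called higher there) and both of its libraries lay above every other liver. Sugar glider liver was lower by -1.01 ± 0.35 (adjusted p = 0.0218 by edgeR; 22.1% of genes were called lower), a call lost on library totals (-0.50) and without replicate 2 (-0.59). The other 6 species were not called, with values from -0.88 in white-footed mouse to 0.71 in bear. On library totals the value of the single white-footed mouse library was -2.04, past the threshold under that assumption.

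Slc1a2 differed more widely between livers than Aldh1l1. The tube-nosed bat library held 112 CPM (102 to 122), the chipmunk livers 18.7 and 39.5, the sugar glider livers 1.93 and 13.2, the white-footed mouse 2.03 (1.08 to 3.47) and the bear 1.94 (1.12 to 3.31). The beaver livers held 0.185 and 0.174 CPM, 8 counts in all, and were the lowest. Against the other species, Slc1a2 was higher in macaque liver by 3.57 ± 0.55 (37.9% of genes were called higher), in the single bat library by 3.28 ± 0.80 (26.1%, with the spread of the other species) and in baboon by 2.46 ± 0.54 (39.8%), and lower in beaver by -6.56 ± 1.37 (adjusted p = 0.000874; 14.9% were called lower). Baboon and macaque livers set against each other differed in 1 of the 5 genes tested (12.3% of genes were called higher in baboon), Gja1, which was 1.16 ± 0.32 higher in baboon at 3.91 against 1.88 CPM. Slc1a2 and Aldh1l1 were not called between them (-0.97 ± 0.56 and -0.42 ± 0.23), nor were Gfap (0.31 ± 0.27) and Slc1a3 (-0.18 ± 0.52), and Aqp4, Hepacam, S100b and Gjb6 fell below the filter. Gja1 was also seen in both sugar glider livers, at 11.3 and 13.5 CPM.

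**Figure D5:**
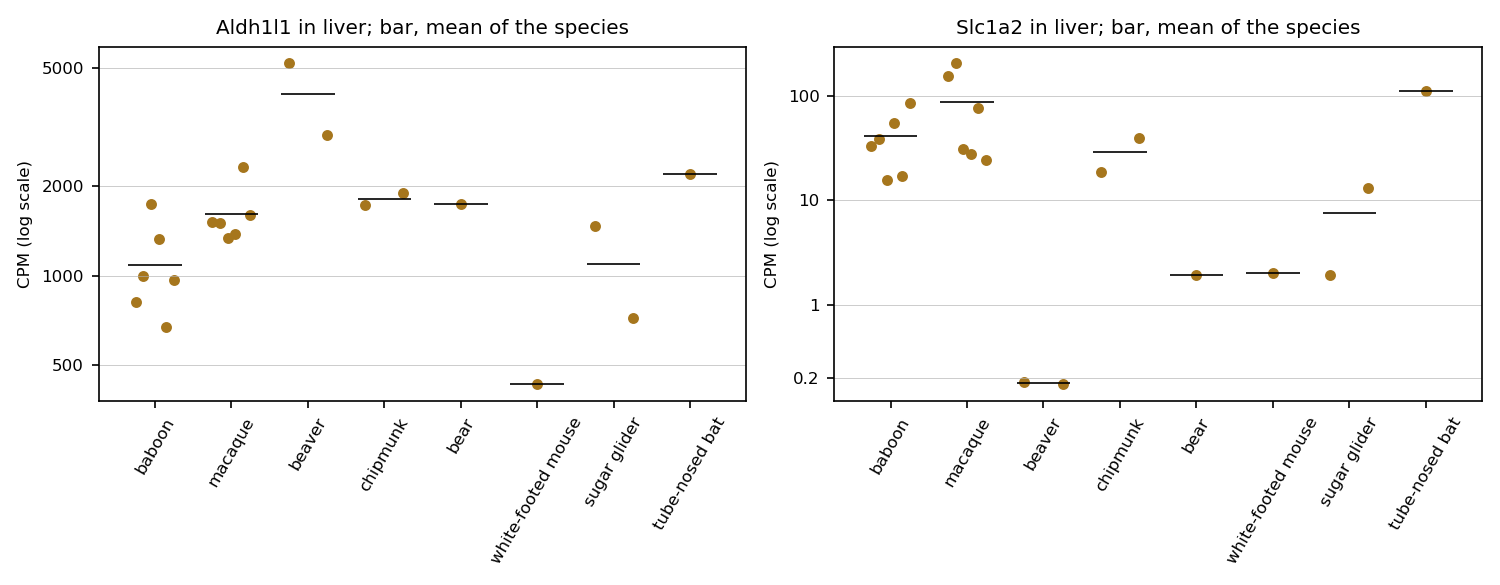
CPM on a log axis in the 21 liver libraries for Aldh1l1 (left) and Slc1a2 (right), with a bar at each species' mean. The beaver livers are the 2 highest for Aldh1l1 (5176 and 2959 CPM) and the 2 lowest for Slc1a2 (0.185 and 0.174 CPM).

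Over the 15 group means of log2(CPM + 1), which share organs and species, Gfap followed, among the members, Slc1a3 (Pearson r = 0.988) and Aqp4 (0.981) most closely, Slc1a2 less so (0.674), and Aldh1l1 ran opposite (-0.822). Among 11478 other genes with at least 20 CPM in 1 group, the closest to Gfap were ENSMUSG00000027273 (r = 0.989) and ENSMUSG00000036777 (0.988), and the closest to Slc1a2 were ENSMUSG00000034472 (0.879) and ENSMUSG00000025876 (0.862). The closest to Aldh1l1 were ENSMUSG00000009633 and ENSMUSG00000036880, both at 0.948. Genes outside the list thus followed Gfap as closely as any member did, so these values do not set the members apart. They are descriptions over 15 points, with no test.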

How the data were processed

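The authors deposited raw counts per gene, 1 column per library for 48 libraries. STAR and featureCounts are named in the submitters' processing notes, with no version; no source used here states the genome builds, the mapping to mouse identifiers or the strand setting. Even values made up 94.3% to 99.4% of the counts from 1 to 20, so 2 counts were taken as 1 read pair in intervals (95%, exact) and in the floor of 3 read pairs per group behind every lower bound. Groups came from the sample titles. Counts were tested with edgeR 4.0.16 in R 4.3.3 (filterByExpr, TMM, quasi-likelihood test, Benjamini-Hochberg over all genes tested), with organs of 1 species in 1 fit. The alternatives were DESeq2 1.42.0, other scaling factors, no filter, halved counts, 1 fit of all libraries, a replicate block and leaving out each library. The edgeR script was tested on simulated data in which most genes did not differ between organs. That test does not cover the scaling between organs as unlike as brain and liver. Same-numbered libraries deviated together at r above 0.1 in all 5 pairs of macaque kidney with liver and with cerebellum. All main fits used the group only, so their SE and p-values are unpaired in these 2 comparisons too. The replicate block was fitted only as an alternative. All 9 members are named, those below the filter included, and the 2 genes most like Gfap, Slc1a2 and Aldh1l1 by identifier. The list rule uses no measured value, but members and lists were chosen with earlier results of these data known. Lists of further astrocyte genes and of other cell types were not tested, because no table used here pairs mouse identifiers with symbols.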

Additional observations from a re-analysis of the deposited data

Results flagged for a closer look

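A library far from the others was sought in 37 combinations of a member and a group of 5 or 6 libraries. The group mean had to be at least 1 CPM, and the measure was the library's gap to the nearest one over the group's range. Of the 37, 6 were flagged. The cutoffs flag about 1 in 20 groups where values are independent and normal, which was not tested for these CPM values. In baboon brain, replicate 2 stood apart for Gfap (3012 CPM, next 1444, gap over range 0.672) and for Aqp4 (394.7 CPM, next 210.4, 0.850). In macaque liver, replicate 3 held 37.33 CPM of Hepacam (next 0.9037, 0.976) and replicate 5 held 2323 CPM of Aldh1l1 (next 1604, 0.732). Gja1 reached 43.35 CPM in baboon kidney replicate 2 (next 21.57, 0.821), and Gjb6 reached 3.571 CPM in macaque kidney replicate 3 (next 0.9315, 0.762).

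For 4 genes the difference between neural tissue and liver itself differed between macaque and baboon, by edgeR's test of the interaction: Slc1a2 (-3.66), Hepacam (-11.03), Aldh1l1 (-0.82) and Gjb6 (-4.54). Brain region and species cannot be told apart in these values. The Slc1a2 call held under all 8 other settings and in all 13 fits with 1 library left out. The Hepacam call was lost with a replicate block and the Aldh1l1 call without baboon brain replicate 4. That of Gjb6 was lost with halved counts, with all 48 libraries in 1 fit and without macaque liver replicate 3.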

How the results depend on the processing

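Leaving aside the Aldh1l1 liver values, the ratios and the counts of genes, 799 member values under other settings kept their direction and their side of the threshold, 18 lost and 9 gained the call, and 3 changed sign; with 1 library left out, 1083 of 1137 did so, 36 lost and 11 gained it, and 7 changed sign. The cause was not tested except where named. On library totals, whose construction keeps the low share of most genes in liver, kidney over liver became 0.97 for Aqp4 and 0.35 for Aldh1l1 in baboon (from -0.25 and -1.08) and 0.11 for Slc1a3 in macaque (from -1.12), Aldh1l1 in liver became -0.50 in sugar glider, 0.65 in tube-nosed bat and -2.04 in white-footed mouse, and 2 genes in place of 1 were called between the kidneys. With all 48 libraries in 1 fit, 2 genes were called for macaque cerebellum over baboon brain (6 before), 2 for beaver over baboon brain (5 before), and 2 each for the baboon and macaque livers and kidneys. With no filter these became 2 and 0 (edgeR, 2 genes at an unadjusted p under 0.05), and DESeq2 called 2 for the kidneys. Aldh1l1 in chipmunk liver was -0.01 with relative log expression factors and with DESeq2. With 1 library left out, the genes called ran from 2 to 5 for beaver over baboon brain, from 1 to 2 for the livers and from 0 to 1 for the kidneys. The same step gave -0.54 to 0.40 (Aqp4, baboon kidney over liver), -5.80 to 1.93 (Aqp4, macaque kidney over liver), -0.22 to 0.07 (Aqp4, cerebellum over baboon brain), -0.21 to 0.20 (Gja1, kidneys), -0.07 to 0.25 (Aldh1l1, chipmunk), -1.58 to -0.59 (Aldh1l1, sugar glider) and -0.30 to 0.03 (Gjb6 over Gja1). Depth limits Aqp4, Hepacam, S100b and Gjb6 outside neural tissue, where most libraries held a few counts or 0.

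Outside macaque kidney, same-numbered libraries deviated together at r above 0.1 in 5 of 18 baboon pairs. The counts were 0 of 6 in macaque and 0 of 2 in beaver. A library still correlated best with its own number in 34 of 36 baboon and 32 of 32 macaque checks. In baboon and macaque the number thus links libraries across organs, also where r was under 0.1, and what they share is not stated. With a replicate block, members called were 9, 9 and 7 in baboon, 9, 9 and 7 in macaque, 9 in beaver and 3 for the interaction (8 before for macaque kidney over liver, 4 for the interaction); the calls lost were Aqp4 in macaque kidney over liver (-3.85, adjusted p = 0.0665 by edgeR) and Hepacam in the interaction (-7.65, adjusted p = 0.137 by edgeR). No other member call changed.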
